A study of Mus musculus with 16 samples.

Results

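Tirzepatide, a synthetic peptide used against diabetes and obesity, is an agonist at the GIP receptor and the GLP-1 receptor. RNA sequencing measured its effect, with no other treatment given, in the mouse macrophage line RAW264.7, which derives from a virus-induced leukaemia. The comparison used the 4 libraries titled tirzepatide against the 4 titled control, 8 of the 16 libraries of the series, and the titles alone assigned them. The tirzepatide cells received 100 nmol/ml of the peptide, in the unit the labels give (no file settles whether nmol per litre was meant), and the control cells received culture medium as the vehicle. Neither group received oxidised low-density lipoprotein (oxLDL). The 8 other libraries came from cells given oxLDL at 50 µg/ml, 4 without and 4 with tirzepatide at the same dose. All cells grew in a high-glucose medium with serum and antibiotics. How long the cells were treated is not stated in the labels, nor whether the libraries of 1 group were grown as separate cultures. The p-values therefore reflect the spread among these samples alone, which may be technical. All groups are cultures of a single transformed line, which limits them as a model of tissue macrophages.

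Both incretin receptors couple to the stimulatory G protein. Its activation of adenylyl cyclase raises cyclic AMP, which acts through protein kinase A on the transcription factor CREB and induces early genes such as Nr4a1, Crem and Sik1. In macrophages, a rise in cyclic AMP is known to dampen the output of inflammatory cytokines. A second route through which metabolism reaches transcription is MondoA, which moves to the nucleus when sugar phosphates build up and induces Txnip and Arrdc4. Macrophages also respond to inflammatory signals by inducing Acod1, the enzyme that makes itaconate from an intermediate of the citric acid cycle.

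The libraries held 15935777 to 17336019 counts in the tirzepatide group and 16134421 to 16840886 in the controls. All 12 macrophage markers, Csf1r, Adgre1, Itgam and Spi1 among them, exceeded a mean of 1 TPM (transcript abundance scaled for length and depth) in both groups. Genes of the exocrine pancreas stood out among markers of other cell types. The summed TPM of 30 acinar markers was 333, 180, 46.4 and 25.8 in controls 1 to 4 and 54.7, 35.5, 8.91 and 69.3 in tirzepatide libraries 1 to 4. Of these markers, 20 exceeded a mean of 1 TPM in the controls and 11 in the tirzepatide group, and Cela3a and Prss1 were at 0 in all 8 libraries. The titles name a single macrophage line, and where the acinar transcripts came from was not tested. For markers in bulk RNA generally, fewer cells of a type and less RNA per cell cannot be told apart. Controls 1 and 2 also had the highest share of counts in the 13 mitochondrially encoded genes, 11.2% and 9.53%, against 8.39% and 8.32% in controls 3 and 4 and 8.18% to 8.67% in the tirzepatide group (exact permutation test of the means, two-sided p = 0.286, n = 4 and 4, where the smallest possible p was 0.0286). No marker of islet, liver, gut, red blood, lymphoid or fibroblast cells exceeded a mean of 1 TPM. Among 8 skeletal muscle markers Tnni2 exceeded it (4.61 TPM in the controls and 4.18 TPM with tirzepatide), and among 8 neutrophil markers S100a8 did (3.68 and 2.98 TPM).

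**Figure D1:**
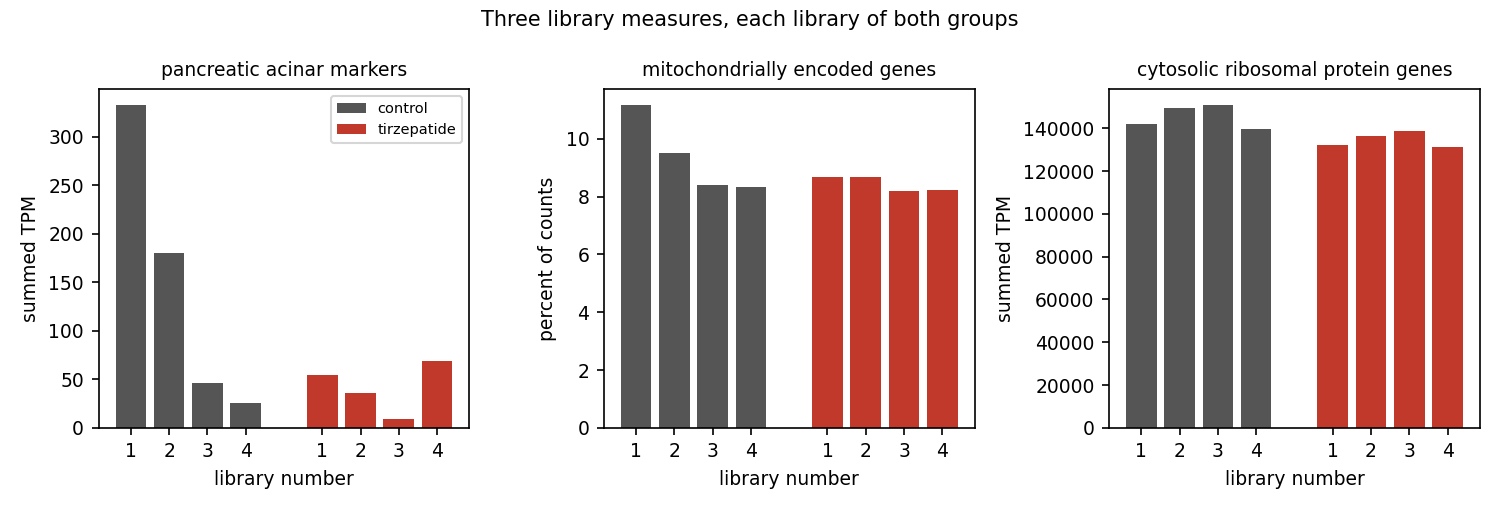
Bars give, for each control library (grey) and each tirzepatide library (red), the summed TPM of 30 pancreatic acinar markers, the percentage of counts in mitochondrially encoded genes and the summed TPM of 82 cytosolic ribosomal protein genes. Controls 1 and 2 stood highest in the left and middle panels, and in the right panel all 4 tirzepatide libraries (131475 to 138664 TPM) lay below all 4 controls (139881 to 150828 TPM).

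The response to tirzepatide alone was broad and shallow. Of 11319 genes tested, 462 passed an adjusted p of 0.05 in edgeR's quasi-likelihood test, 4.08% of those tested. The genes called lower were 197 (1.74%), and the rest, 2.34% of those tested, were higher. The median log2 change was 0.22 among the genes called higher and −0.30 among those called lower, and 420 of the 462 genes changed by less than 1.5-fold. Only 5 genes called higher and 17 called lower passed 2-fold. Among these 22 genes, 8 averaged 5 TPM or more on their higher side, and of those 8 only Cryab had no overlap between the groups. Of the 17 genes lower by over 2-fold, 9 were highest in control 1 and next highest in control 2. They included the pancreatic genes Try4, Prss3b, Dmbt1, Reg2 and the near-identical amylase genes Amy2a2, Amy2a3 and Amy2a4, whose counts cannot be told apart. Try4, a trypsinogen, stood at 30.0, 14.2, 2.54 and 1.39 TPM in the controls and at 3.08, 1.15, 0 and 2.62 TPM with tirzepatide, and without controls 1 and 2 it did not pass (adjusted p = 0.948).

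Separation of the 2 groups in TPM was more frequent among genes called higher. Over all genes tested it was also more often upward than downward, although 49.9% of the log2 changes, taken from scaled counts, were positive. All 4 tirzepatide libraries lay above all 4 controls in TPM for 211 of the genes called higher, against 7.27% of all genes tested, and below all 4 controls for 92 of the 197 called lower, against 2.68%. The number of calls depended on single libraries. It fell to 119 without control 2, 186 without tirzepatide library 1, 199 without tirzepatide library 2, 247 without control 3 and 293 without tirzepatide library 3, and it was 204 without controls 1 and 2 together. In all, 99 genes, 64 higher and 35 lower, were called with all libraries and in each of the 8 fits that left out a single library. The 35 include Amy2a2, Amy2a3 and Amy2a4, which held identical values and are not separate results. Each stood at 19.7, 8.87, 1.98 and 0.073 TPM in controls 1 to 4 and at 0.009 to 0.299 TPM with tirzepatide. A called gene given with its values below was called in those 8 fits too unless a library is named beside it. Without controls 1 and 2 together, the calls lost included those of Prkar2b, Klf6, Csf1r, Cd14, Il15, Ccl5, H2-K1, H2-D1, Rps25, Ncf1, Fosl1 and Slc7a1 (adjusted p = 0.0572 to 0.249). Other genes that lost their call there have this value beside them or are named without their values.

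**Figure D2:**
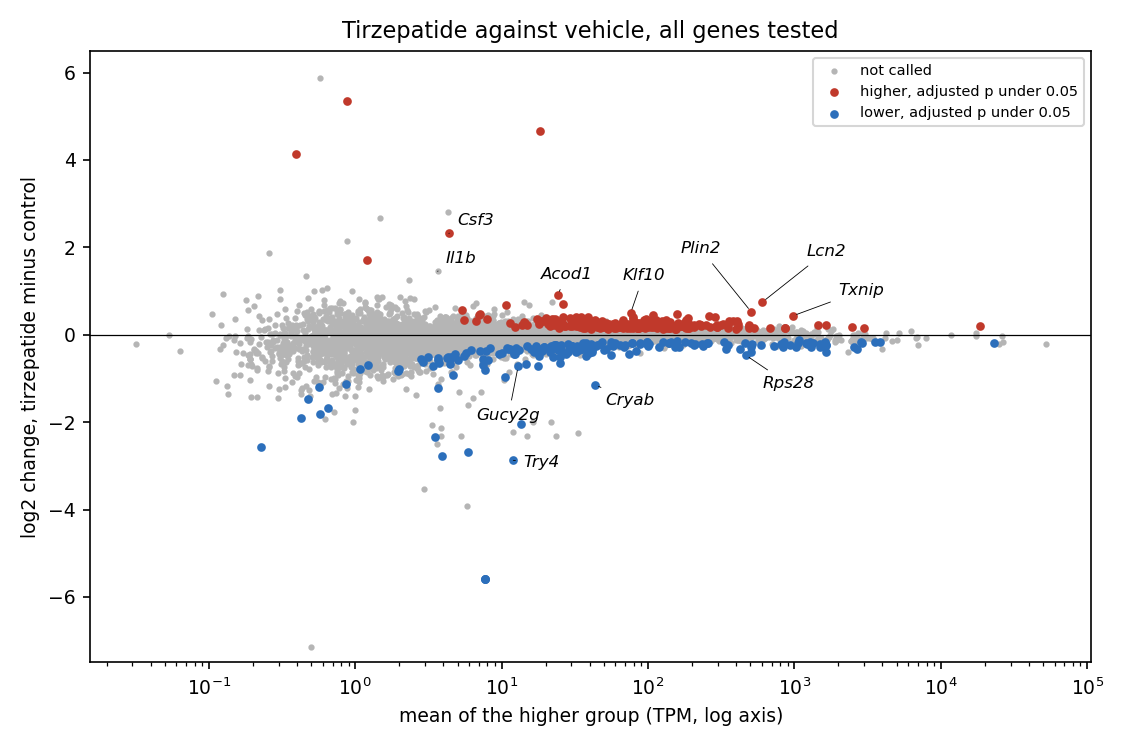
Each point is a gene tested, with the mean TPM of its higher group on a logarithmic horizontal axis and the edgeR log2 change (tirzepatide minus control) on the vertical axis; red marks genes called higher and blue the 197 called lower. Most coloured points lie close to 0, and Try4 is among the genes with the largest falls.

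Of the receptors that tirzepatide activates, only Gipr was measurable. Glp1r, the receptor of GLP-1, had 2 counts over the 4 control libraries and 1 over the 4 tirzepatide libraries, too few to test. Gipr, the receptor of GIP, stood at 2.39, 2.86, 2.08 and 3.64 TPM in the controls and at 2.17, 1.49, 2.17 and 3.00 TPM with tirzepatide. The groups overlapped, and the log2 change was −0.34 (SE 0.22, adjusted p = 0.437). The related glucagon receptor gene Gcgr had no count in any library, which allows up to 3 counts in each.

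Of 25 tested members of the list of incretin receptors and cyclic AMP signalling parts, none was called higher and 1 was called lower. This share of 4.0% was near the 4.08% of all genes tested. The median log2 change was −0.03 against −0.000145 for all genes tested. The gene called lower was Prkar2b, a regulatory subunit of protein kinase A, at 122, 122, 128 and 132 TPM in the controls and 116, 112, 119 and 114 TPM with tirzepatide (log2 −0.16, SE 0.04, adjusted p = 0.0226). Its call was lost without control 2 (adjusted p = 0.0515), control 3 (0.0502) or tirzepatide library 1 (0.0549), 2 (0.0700) or 4 (0.0548). None of the 17 tested CREB targets was called in either direction. With 4.08% called among all genes tested, a list of this size may hold no call. Their median log2 change was −0.09 (−0.14 to −0.000522 over the 8 fits without a single library). Of them, 7 were positive and 10 negative (41.2% positive, against 49.9% of all genes tested). Nr4a1, a nuclear receptor of the immediate early response, stood at 15.7, 17.0, 19.4 and 18.3 TPM in the controls and at 13.6, 12.8, 14.7 and 18.6 TPM with tirzepatide (log2 −0.28, SE 0.09, adjusted p = 0.0957). Among the settings tried it was called lower without tirzepatide library 4 (adjusted p = 0.0124) or when the mitochondrial share entered the model (adjusted p = 0.0428). Nr4a3, a relative, was lower in all 4 tirzepatide libraries, at 0.297 to 0.644 TPM against 0.686 to 0.820 TPM, and did not pass (log2 −0.74, SE 0.28, adjusted p = 0.139). Areg, which encodes the growth factor amphiregulin, stood higher in all 4 tirzepatide libraries, at 12.7 to 15.2 TPM against 10.4 to 12.5 TPM, and did not pass either (log2 0.21, SE 0.14, adjusted p = 0.469).

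Klf10, Txnip and Arrdc4, known as targets of MondoA or ChREBP, were higher. They were 3 of 9 tested members of the list of glucose-responsive genes (33.3%, against 4.08% of all genes tested). No member was called lower, and the median of the list was 0.03 (0.00369 to 0.07 without a single library). Klf10, a zinc finger repressor also induced by TGF-beta, stood at 52.1, 50.6, 56.3 and 51.7 TPM in the controls and at 77.4, 77.1, 74.4 and 75.4 TPM with tirzepatide. It was raised in all 4 libraries with no overlap (log2 0.49, SE 0.05, adjusted p = 3.78e-06). Txnip, an arrestin-like protein that binds thioredoxin and restrains glucose uptake, stood at 645, 705, 736 and 752 TPM in the controls and at 982, 974, 968 and 974 TPM with tirzepatide (log2 0.43, SE 0.05, adjusted p = 1.58e-05). The tirzepatide libraries lay closer together than the controls, and control 1 was the lowest of all 8. Arrdc4, the arrestin-like relative of Txnip, stood at 32.5, 29.0, 34.1 and 34.9 TPM in the controls and at 40.2, 43.5, 40.9 and 38.0 TPM with tirzepatide (log2 0.31, SE 0.07, adjusted p = 0.0127). Its call was lost without control 2 (adjusted p = 0.0712) or tirzepatide library 2 (0.0625), and without controls 1 and 2 together (0.0916). The other members were not called, among them Mlxip, which encodes MondoA itself (log2 −0.01, SE 0.05, adjusted p = 0.944), and the hexokinase gene Hk2 (log2 −0.15, SE 0.06, adjusted p = 0.195).

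The promoters of Txnip and Arrdc4 are printed because both genes rose together and because MondoA and its relative ChREBP bind paired E boxes. The 250 bases before each gene's start are given 5′ to 3′ on the gene's own strand, from RefSeq on build GRCm38.p6, an earlier build than the GRCm39 named in the submitters' processing notes. Txnip lies on the plus strand at chr3:96557707-96557956 and Arrdc4 on the minus strand at chr7:68749239-68749488. Capitals mark the E box CACGTG in Arrdc4 and its variant CACGAG in Txnip, a variant chosen after the Txnip promoter had been read.
Txnip: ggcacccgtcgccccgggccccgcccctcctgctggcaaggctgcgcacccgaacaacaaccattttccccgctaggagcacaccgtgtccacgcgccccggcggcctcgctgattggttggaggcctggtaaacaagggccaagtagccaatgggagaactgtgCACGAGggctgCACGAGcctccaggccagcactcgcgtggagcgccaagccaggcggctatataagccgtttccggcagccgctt
Arrdc4: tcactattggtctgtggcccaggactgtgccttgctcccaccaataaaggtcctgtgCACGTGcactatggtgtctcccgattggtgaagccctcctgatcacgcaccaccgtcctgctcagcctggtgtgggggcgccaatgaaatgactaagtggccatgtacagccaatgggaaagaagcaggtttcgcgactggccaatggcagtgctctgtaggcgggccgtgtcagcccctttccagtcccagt
The variant begins 85 and again 74 bases before the start of Txnip, so that both copies are separated by 5 bases. The pair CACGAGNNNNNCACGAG occurred in 1 of 32851 promoters of this length, Txnip's own, while single CACGAG and CACGTG sequences occurred on either strand in 5.37% and 6.02% of them. In Arrdc4 a single CACGTG begins 193 bases before the start. The cyclic AMP response element TGACGTCA, present in 1.55% of promoters, was in neither window. Because most promoters lack it, its absence here does not set these genes apart. Because the variant was chosen from the Txnip promoter, its match in Txnip was fixed in advance. A match is a description of these letters and was not tested for binding. Klf10 was not matched in the promoter table.

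Klf10 was 1 of 3 Kruppel-like factors called higher among 12 tested, and none was lower. Klf6, which is induced by many growth signals, stood at 78.9, 72.3, 75.3 and 86.6 TPM in the controls and at 93.8, 95.0, 96.0 and 87.8 TPM with tirzepatide (log2 0.21, SE 0.05, adjusted p = 0.0144). Klf11, the closest relative of Klf10, stood at 12.7, 14.4, 15.8 and 15.2 TPM and at 19.8, 18.8, 17.8 and 17.7 TPM (log2 0.33, SE 0.07, adjusted p = 0.00988). The groups did not overlap for either gene. Klf6 was not called without control 2 (adjusted p = 0.0890), control 3 (0.0579) or tirzepatide library 2 (0.0651), nor Klf11 without tirzepatide library 1 (0.0515) or without controls 1 and 2 together (0.111).

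Acod1 had the smallest p of all genes. The enzyme converts cis-aconitate, an intermediate of the citric acid cycle, to itaconate, which limits inflammatory activation of macrophages. Acod1 stood at 14.0, 11.2, 12.7 and 12.6 TPM in the controls and at 26.6, 24.0, 22.7 and 23.4 TPM with tirzepatide, 12.6 ± 1.16 against 24.2 ± 1.69 TPM (mean ± SD, n = 4 each). Every tirzepatide library lay well above every control (log2 0.90, SE 0.08, adjusted p = 7.02e-07). None of the other tested genes of itaconate and the citric acid cycle was called, 1 of 24 in all. The list's median log2 change was 0.01.

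Of 13 tested scavenger and phagocytic receptors, 3 were higher and none lower, with a list median of 0.12. All 3 were called in every setting tried. Msr1, the class A scavenger receptor that takes up modified lipoproteins, stood at 82.6, 69.6, 68.0 and 79.8 TPM in the controls and at 117, 107, 107 and 99.8 TPM with tirzepatide (log2 0.44, SE 0.07, adjusted p = 0.000755). Itgam, the alpha chain of complement receptor 3, stood at 60.0, 55.9, 67.1 and 63.4 TPM and at 78.3, 81.0, 80.0 and 78.4 TPM (log2 0.36, SE 0.05, adjusted p = 0.00015). Igsf6, an immunoglobulin-domain surface protein of myeloid cells, stood at 13.4 to 19.3 TPM and at 24.0 to 28.3 TPM (log2 0.69, SE 0.12, adjusted p = 0.00191). In none of these 3 genes did the groups overlap. The scavenger receptor Cd36, known for uptake of oxLDL, had 9 counts over the controls and 5 over the tirzepatide libraries and was not tested.

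Antimicrobial and complement genes had the highest median of the pathway lists, 0.21 over 13 tested members, of which 6 were higher and none lower. Lcn2, a secreted protein that withholds iron from bacteria, stood at 389, 302, 329 and 393 TPM in the controls and at 632, 648, 572 and 568 TPM with tirzepatide (log2 0.75, SE 0.15, adjusted p = 0.00587). Cfp encodes properdin, which stabilises the alternative complement convertase. It stood at 106, 103, 113 and 122 TPM and at 170, 158, 146 and 158 TPM (log2 0.48, SE 0.07, adjusted p = 0.000169). C3ar1, a receptor of the complement fragment C3a, also rose (36.1 to 40.1 against 45.8 to 52.1 TPM, log2 0.32, SE 0.06, adjusted p = 0.00283). The groups were separate in all 3 of these genes. Ncf1 and Lyz2 were also called, and both calls were lost when 1 of several single libraries was left out. The number called in the list was 4 without control 2, tirzepatide library 1 or tirzepatide library 2, and 5 without controls 1 and 2.

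**Figure D3:**
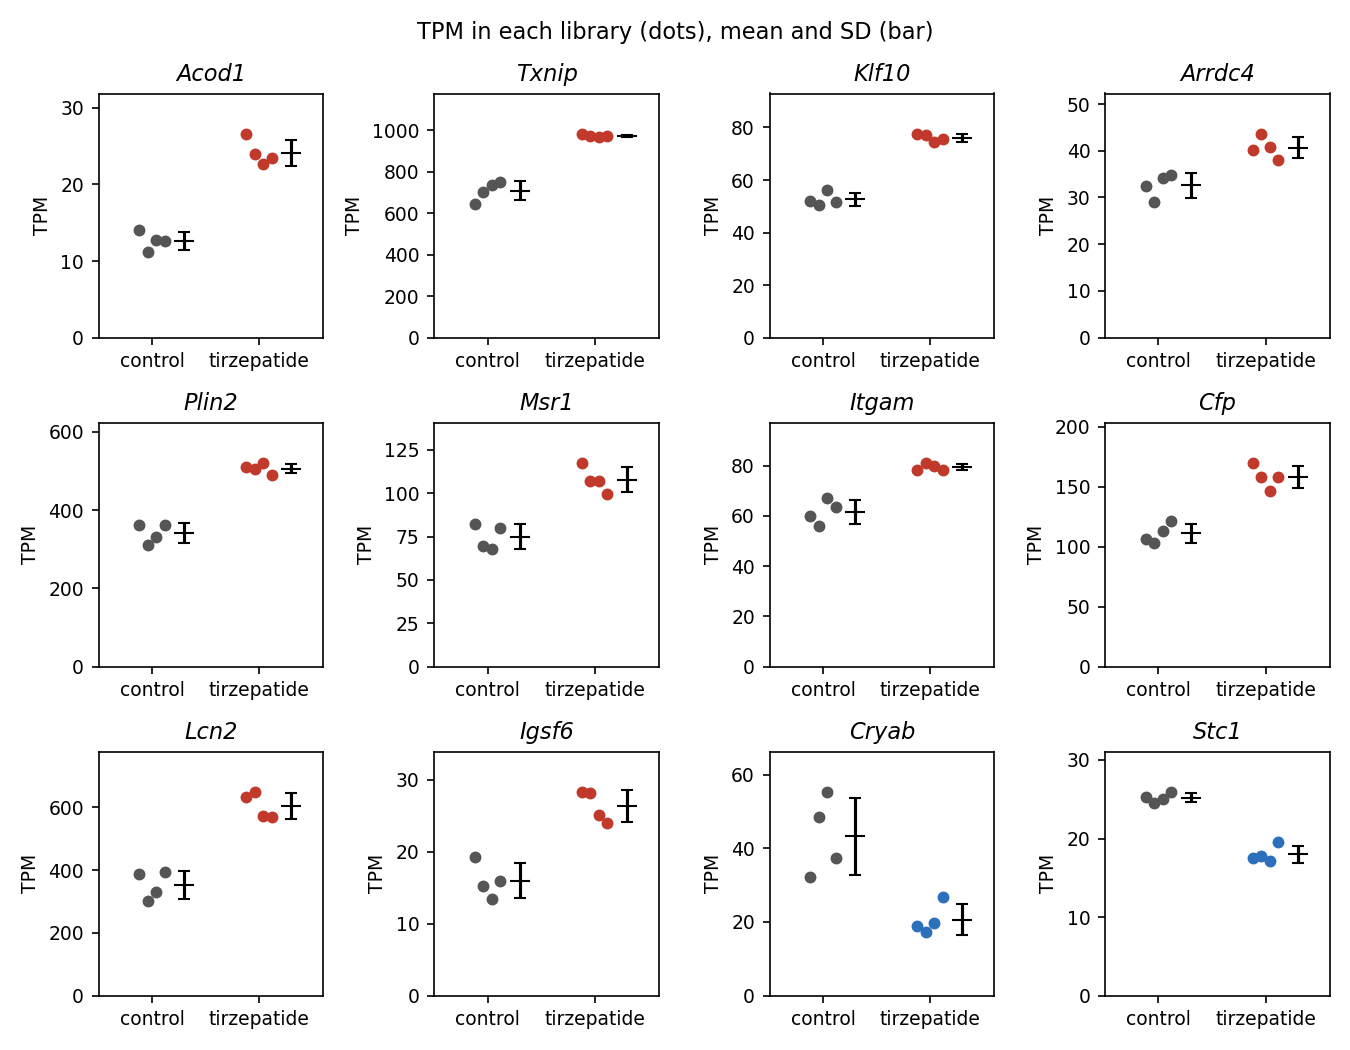
TPM of 12 genes, each dot a library, with the mean and SD (n = 4) beside each group; red and blue dots mark tirzepatide libraries of genes called higher and lower. The groups do not overlap in any of the 12 panels, and the controls of Cryab spread from 32.2 to 55.2 TPM.

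Of 22 tested macrophage lineage genes, 4 were higher and 1 lower, 22.7% against the 4.08% of all genes tested. Their median log2 change was 0.05 (0.02 to 0.10 without a single library), and fewer were higher when a single library was left out, 1 without control 2 or tirzepatide library 1 or 2 and 2 without control 3. Besides Itgam and Lyz2, these were Csf1r, the receptor of macrophage colony-stimulating factor (581 to 844 against 792 to 963 TPM, log2 0.15, SE 0.04, adjusted p = 0.0256), and the lipopolysaccharide co-receptor Cd14 (128 to 152 against 181 to 192 TPM, log2 0.39, SE 0.11, adjusted p = 0.0394). The TPM means of Csf1r, 690 and 863, lay further apart than its log2 change from counts. The call of Csf1r was lost without control 1, control 2 or tirzepatide library 1, 2 or 4, and that of Cd14 without any of the 8 libraries (adjusted p up to 0.120 and 0.145, each without control 2). Adgre1, which encodes the surface marker F4/80, was lower, at 213, 228, 257 and 240 TPM in the controls and 202, 186, 218 and 187 TPM with tirzepatide (log2 −0.22, SE 0.04, adjusted p = 0.00719). Its groups overlapped through control 1 and tirzepatide library 3.

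Of 18 cytokine genes tested, 1 was higher and 1 lower, with a median of −0.01 (−0.05 to 0.06 without a single library). Csf3, the granulocyte colony-stimulating factor, stood at 1.35, 0.587, 0.501 and 0.965 TPM in the controls and at 3.91, 5.38, 4.29 and 3.87 TPM with tirzepatide. The groups were separate, at a low level (log2 2.32, SE 0.42, adjusted p = 0.00283). Il15, which sustains natural killer and memory T cells, stood at 12.3, 17.7, 15.7 and 12.7 TPM and at 9.92, 9.23, 9.98 and 7.94 TPM (log2 −0.67, SE 0.14, adjusted p = 0.00967), a call lost without control 2 (adjusted p = 0.0620). Il1b, at 0.457 to 2.00 TPM in the controls and 3.38 to 4.03 TPM with tirzepatide, was separate between the groups and did not pass in the fit of all 16 libraries (log2 1.45, SE 0.49, adjusted p = 0.0949). In 4 settings it passed, among them when library 2 of the combination with oxLDL was left out of the fit (adjusted p = 0.00166) and when only control and tirzepatide libraries were fitted (adjusted p = 0.0272). Tnf stood at 158 to 167 TPM in the controls and 151 to 172 TPM with tirzepatide (log2 −0.06, SE 0.06, adjusted p = 0.672). Il6 stood at 1.54 to 1.84 TPM in the controls and at 0.993 to 3.17 TPM with tirzepatide, highest in library 4 (log2 −0.04, SE 0.40, adjusted p = 0.970).

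Among 8 chemokine genes tested, Cxcl2 was higher and Ccl5 lower. Cxcl2, which attracts neutrophils, stood at 212, 210, 200 and 213 TPM in the controls and at 270, 291, 274 and 307 TPM with tirzepatide (log2 0.41, SE 0.09, adjusted p = 0.00932). Ccl5, which attracts T cells and monocytes, stood at 25.2, 24.5, 25.7 and 25.4 TPM and at 12.9, 16.9, 17.4 and 18.9 TPM (log2 −0.64, SE 0.17, adjusted p = 0.0385). The call of Ccl5 was lost in 7 of the 8 fits without a single library, up to an adjusted p of 0.126 without tirzepatide library 1. The monocyte attractant Ccl2 overlapped between the groups (10.9 to 13.2 against 11.4 to 18.8 TPM, log2 0.23, SE 0.23, adjusted p = 0.647).

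Of 12 tested inflammasome genes, 3 were higher and none lower, with a median of 0.07 (0.03 to 0.13 without a single library). Nlrp3, the sensor of the inflammasome that matures interleukin 1 beta, stood at 25.6, 31.3, 30.5 and 32.6 TPM in the controls and at 45.6, 49.6, 38.1 and 41.9 TPM with tirzepatide. Its log2 change from counts was 0.34 (SE 0.06, adjusted p = 0.00168). TPM also reflects the estimated mix of transcript lengths, and the ratio of the TPM means was larger than this. Txnip, described above, also belongs to this list, and the sensor Nlrp1b stood at 4.57 to 5.28 against 6.22 to 7.71 TPM (log2 0.44, SE 0.10, adjusted p = 0.0163). The call of Nlrp1b was lost without control 2 (adjusted p = 0.0564), control 3 (0.0619) or tirzepatide library 1 (0.0718) or 3 (0.0528).

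Of 14 tested markers of classical (M1) activation, none was higher and Ccl5 alone was lower, while 9 had a positive log2 change and the median was 0.08 (0.06 to 0.11 without a single library, 0.01 without controls 1 and 2). Il1b, given above, and Ptgs2 stood higher in all 4 tirzepatide libraries without passing. Ptgs2, the inducible cyclooxygenase, stood at 69.7 to 84.8 TPM in the controls and at 101 to 108 TPM with tirzepatide (log2 0.45, SE 0.17, adjusted p = 0.137). Nos2, the inducible nitric oxide synthase, stood at 55.5, 71.5, 81.5 and 82.7 TPM in the controls and at 60.9, 61.4, 61.6 and 74.8 TPM with tirzepatide (log2 −0.20, SE 0.09, adjusted p = 0.222). It was called lower without control 1 (adjusted p = 0.0257), without controls 1 and 2 (0.0407), and when the mitochondrial share entered the model (0.0101). Of 8 tested markers of alternative (M2) activation, none was called in either direction, and their median was −0.06 (−0.11 to −0.01 without a single library). Arg1 and Mrc1, the best known of these markers, had 0 and 2 counts over the controls and 2 and 1 over the tirzepatide libraries, and were not tested.

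Of 22 tested genes of antigen presentation by class I major histocompatibility molecules, 3 were lower and none higher, with a median of −0.08 (−0.11 to −0.02 without a single library). H2-Q6, a non-classical class I gene, stood at 33.6, 37.6, 36.9 and 41.8 TPM in the controls and at 26.9, 25.4, 29.0 and 25.8 TPM with tirzepatide (log2 −0.49, SE 0.09, adjusted p = 0.00281). The classical genes H2-K1 (108 to 134 against 91.6 to 109 TPM, log2 −0.29, SE 0.06, adjusted p = 0.0122) and H2-D1 (331 to 365 against 291 to 321 TPM, log2 −0.23, SE 0.05, adjusted p = 0.0102) were called too. Class I genes are close paralogs, so reads may be shared among them. Without control 2 only H2-Q6 was called (adjusted p = 0.0736 for H2-K1 and 0.0552 for H2-D1), and the call of H2-K1 was also lost without tirzepatide library 1 (0.0557) or 2 (0.0501). B2m, the light chain that all class I molecules share, stood at 925 to 990 TPM in the controls and at 844 to 878 TPM with tirzepatide, with no overlap and an adjusted p of 0.0502 (log2 −0.18, SE 0.05).

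Of 31 tested interferon-stimulated genes, 3 were higher and none lower, with a median of 0.18, and 24 of the 31 had a positive log2 change. The 3 were Oas2, Oas1a and Parp14. Oas2, an enzyme of the antiviral response, stood at 19.6, 15.0, 16.4 and 16.2 TPM in the controls and at 20.6, 24.9, 24.1 and 22.4 TPM with tirzepatide (log2 0.37, SE 0.09, adjusted p = 0.0152). No member was called without control 2, control 3, tirzepatide library 2 or tirzepatide library 3, and 1 without tirzepatide library 1, while the median stayed between 0.14 and 0.17 over the 8 fits without a single library.

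Plin2, the coat protein of lipid droplets, stood at 363, 310, 330 and 361 TPM in the controls and at 509, 506, 520 and 490 TPM with tirzepatide (log2 0.53, SE 0.08, adjusted p = 0.000263). Of 22 tested genes of lipid droplets and PPAR targets, Plin2, Cpt1a and Hadha were higher and none lower, with a median of 0.06, and without control 2 or tirzepatide library 1 or 2 Plin2 alone was called. None of 18 tested LXR targets and cholesterol efflux genes was called. The cholesterol exporters Abca1 (151 to 170 against 164 to 173 TPM, log2 0.07, SE 0.06, adjusted p = 0.613) and Abcg1 (206 to 233 against 195 to 223 TPM, log2 0.02, SE 0.08, adjusted p = 0.930) overlapped between the groups. Of 24 tested genes of cholesterol synthesis, Dhcr7 was called lower and none higher, and that call was lost without control 2 (adjusted p = 0.0668), control 3 (0.0523) or tirzepatide library 1 (0.0537).

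Of 27 tested targets of the antioxidant factor NRF2, 4 were higher and none lower, with a median of 0.000134. They were G6pdx, Pgd, Slc7a11 and Sqstm1, and 2 were higher without control 2. G6pdx and Pgd encode the dehydrogenases of the oxidative pentose phosphate pathway, which supply NADPH. G6pdx stood at 319, 307, 323 and 335 TPM in the controls and at 413, 406, 397 and 410 TPM with tirzepatide (log2 0.31, SE 0.05, adjusted p = 0.000276). Pgd stood at 149, 145, 157 and 162 TPM and at 189, 192, 176 and 196 TPM (log2 0.27, SE 0.04, adjusted p = 0.00159). Slc7a11, the cystine importer, stood at 79.0 to 90.8 against 110 to 118 TPM (log2 0.34, SE 0.07, adjusted p = 0.00796) and was not called without control 2 (adjusted p = 0.0533). The groups were separate in these 3 genes.

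Cytosolic ribosomal protein genes gave the largest number of calls of any list. Of 82 tested, 29 were lower and none higher, 80 had a negative log2 change, and the median was −0.14. Rps28 stood at 474, 471, 510 and 403 TPM in the controls and at 320, 351, 393 and 314 TPM with tirzepatide (log2 −0.47, SE 0.08, adjusted p = 0.00168). Rps27a, whose product is made fused to ubiquitin, stood at 2802, 2712, 2789 and 2412 TPM and at 2241, 2238, 2378 and 1839 TPM (log2 −0.32, SE 0.07, adjusted p = 0.00719). The TPM of 16 members was lower in all 4 tirzepatide libraries than in any control, as for 2.68% of all genes tested. Control 4 lay lowest among the controls for Rps28 and Rps27a, and without controls 1 and 2 together Rps27a was not called (adjusted p = 0.0853). The median kept its sign in every fit without a single library (−0.19 to −0.13), while the number of calls ran from 5 without control 2 to 48 without control 4, with 7 without tirzepatide library 1, 11 without tirzepatide library 4, 16 without control 3 and 18 without tirzepatide library 2. It was 2 without controls 1 and 2 (median −0.12) and 17 when the model held the acinar share. Ribosomal protein transcripts are short, with a median of 1077 bases against 3401 bases for all genes tested, and in the shortest quintile of genes 2.48% were called lower and 1.33% higher, against 1.73% and 3.19% in the longest. With the ribosomal protein genes left out, 35 of 2189 genes in the shortest quintile were called lower and 30 higher, and the genes called lower had a median of 3614 bases. The part of transcript length in the result was not tested. None of 78 mitochondrial ribosomal protein genes was called (median 0.01), and none of the 13 mitochondrially encoded genes, whose median of −0.15 was 0.05 without controls 1 and 2.

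Of 46 tested genes of mitosis, 7 were higher and none lower, 41 had a positive log2 change (89.1%, against 49.9% of all genes tested), and the median was 0.14. Kif20a, a kinesin of cytokinesis, stood at 16.8, 17.9, 16.3 and 20.3 TPM in the controls and at 22.8, 21.6, 22.1 and 22.1 TPM with tirzepatide (log2 0.35, SE 0.07, adjusted p = 0.00742). Ube2c, which serves the anaphase-promoting complex, stood at 84.1, 98.5, 91.1 and 101 TPM and at 116, 120, 105 and 128 TPM (log2 0.30, SE 0.06, adjusted p = 0.00828). The TPM of 18 members was higher in all 4 tirzepatide libraries than in any control, as for 7.27% of all genes tested. The number called was 2 without control 2 or tirzepatide library 3 and 3 without control 3, control 4 or tirzepatide library 1 or 2, while the median stayed between 0.12 and 0.17. Beside oxLDL the median of the list was −0.02. Of 42 genes of DNA replication, Mcm2, Mcm7 and Rrm2 were higher and none lower, with a median of 0.05 (0.01 to 0.06 without a single library), and none was higher without control 2, control 3 or tirzepatide library 1 or 2 and 1 without tirzepatide library 3 or 4.

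**Figure D4:**
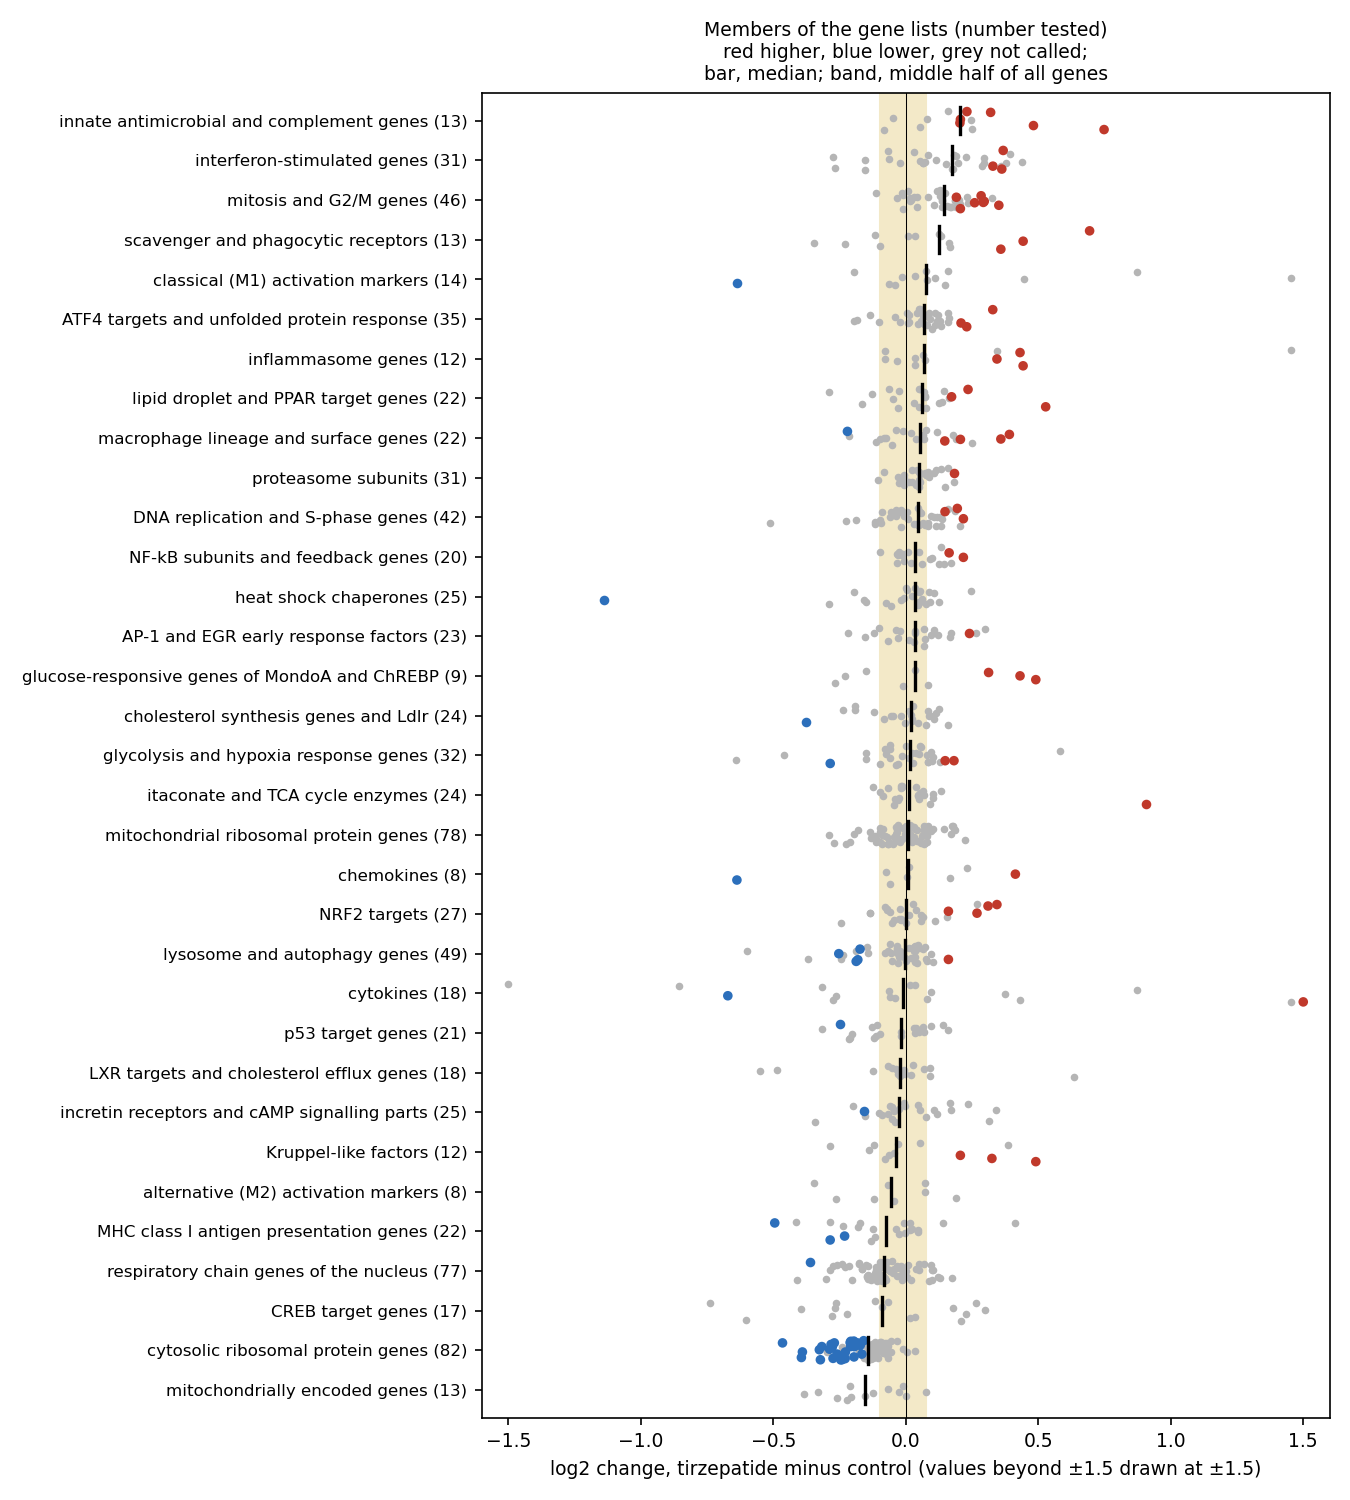
Log2 change (tirzepatide minus control) of every tested member of each pathway list, ordered by the list's median (black bar); red and blue dots passed an adjusted p of 0.05, and the band spans the interquartile range of all genes tested (−0.10 to 0.08); 2 members beyond a log2 change of 1.5 are drawn at the edge. Antimicrobial genes lie at the top with a median of 0.21 and ribosomal protein and mitochondrially encoded genes at the bottom, with medians of −0.14 and −0.15.

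Cryab, a small heat shock chaperone, stood at 32.2, 48.4, 55.2 and 37.3 TPM in the controls and at 19.0, 17.1, 19.7 and 26.8 TPM with tirzepatide, and was the only call among 25 tested heat shock chaperones (log2 −1.14, SE 0.15, adjusted p = 0.00015). Of 35 tested ATF4 targets and genes of the unfolded protein response, Chac1, Atf5 and Slc7a1 were higher and none lower (8.57% called). Their list had a median of 0.07 and a positive log2 change in 82.9% of members, against 49.9% of all genes tested. Chac1, which degrades glutathione, stood at 68.5, 74.6, 73.5 and 78.0 TPM and at 84.5, 93.9, 92.6 and 106 TPM (log2 0.33, SE 0.07, adjusted p = 0.00687), and it was the only one still called without control 2. Among the remaining lists, the share called was 10.2% for lysosomes and autophagy and 9.38% for glycolysis and hypoxia, against 4.08% of all genes tested, and 2 of 20 genes were called for NF-kB. Rel and Nfkb1 were higher among the NF-kB genes, Fosl1 among 23 AP-1 and EGR factors, Psmc3 among 31 proteasome subunits, and Ero1a and Pkm among 32 genes of glycolysis and hypoxia, where Pfkm was lower. Among 49 genes of lysosomes and autophagy, Sqstm1 was higher and Hexa, Gpnmb, Gabarapl1 and Ctsh lower. Uqcr10 was lower among 77 nuclear genes of the respiratory chain and Zmat3 among 21 p53 targets. Without control 2, none of these lists held a call except that of p53 targets, whose call was lost without control 3, control 4 or tirzepatide library 1, 2 or 4.

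A set of 21 genes, chosen after their values were seen, was called in all 22 settings tried, 16 higher and 5 lower. It held Acod1, Klf10, Txnip, Plin2, Msr1, Itgam, Igsf6, Cfp, C3ar1, G6pdx and Cryab. Stc1 encodes the secreted hormone stanniocalcin 1 and stood at 25.3, 24.5, 25.1 and 25.9 TPM in the controls and at 17.5, 17.8, 17.1 and 19.5 TPM with tirzepatide (log2 −0.52, SE 0.07, adjusted p = 8.94e-05). Sema3e, a secreted guidance molecule, stood at 75.6, 65.9, 70.7 and 81.0 TPM and at 99.2, 95.2, 92.0 and 99.4 TPM (log2 0.37, SE 0.05, adjusted p = 0.00015). Flna, the actin crosslinker filamin A, stood at 104 to 127 against 140 to 144 TPM (log2 0.30, SE 0.04, adjusted p = 0.000201). The RNA-binding protein Sfpq (92.0 to 111 against 125 to 138 TPM, log2 0.34, SE 0.06, adjusted p = 0.0017) also rose. Chrnb1, a subunit of the muscle acetylcholine receptor, was lower (16.7 to 19.8 against 9.59 to 12.8 TPM, log2 −0.71, SE 0.11, adjusted p = 0.000565), as was Gucy2g, a membrane guanylyl cyclase (9.90 to 15.7 against 7.56 to 8.37 TPM, log2 −0.72, SE 0.10, adjusted p = 0.000201). The set also held Prep and Ptpn7, both higher, and Tbc1d30, lower with overlapping groups. Rbm3, a cold-inducible RNA-binding protein, rose by 0.42 (SE 0.06, adjusted p = 0.000263; 176 to 208 against 254 to 268 TPM) and missed this set only in the fit of libraries numbered 1 and 2 (adjusted p = 0.0535).

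Whether the effect differed in the presence of oxLDL was tested in the same fit. The effect of tirzepatide beside oxLDL (combination minus oxLDL) came from the other 8 libraries, and only 4 genes, 0.0353% of those tested, were called there. Library 2 of the combination stood apart from its replicates in several genes, such as Lcn2 (570 TPM against 248 to 314) and Plin2 (524 TPM against 708 to 785). Klf10, Txnip and Arrdc4 were 3 of the 4 genes, and the other tested members of the glucose-responsive list were not called there. Klf10 stood at 55.1 to 57.7 TPM with oxLDL and 76.1 to 86.3 TPM with the combination (log2 0.48, SE 0.05, adjusted p = 4.83e-06), close to its change of 0.49 without oxLDL. Txnip stood at 649 to 674 against 857 to 1033 TPM, and Arrdc4 at 25.2 to 29.9 against 30.6 to 44.4 TPM. For none of these 3 genes was the difference of the effects called. The fourth was Ints6l, a subunit of the Integrator complex family (log2 0.28, SE 0.05, adjusted p = 0.0369), whose log2 change without oxLDL was −0.01 (SE 0.05, adjusted p = 0.943).

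The difference of the effects was called for 8 genes, 0.0707% of those tested. Acod1 gave the clearest difference. It stood at 21.4 to 24.9 TPM with oxLDL alone and 22.7 to 24.0 TPM with the combination, so that its change of 0.90 without oxLDL was 0.03 beside oxLDL (difference −0.87, SE 0.11, adjusted p = 0.000704). With tirzepatide alone it stood at 22.7 to 26.6 TPM. The difference was called in each fit without a single library and in 20 of 21 settings, the exception being only libraries numbered 1 and 2 (adjusted p = 0.0626). Plin2 stood at 694 to 730 TPM under oxLDL and 524 to 785 TPM in the combination, above its 490 to 520 TPM with tirzepatide alone (difference −0.59, SE 0.11, adjusted p = 0.0221). Cxcl2 changed by 0.41 without oxLDL and −0.28 beside it (difference −0.70, SE 0.12, adjusted p = 0.0221), and the change beside oxLDL was not itself called. It stood at 270 to 321 TPM with oxLDL and at 209, 196, 290 and 300 TPM in combination libraries 1 to 4. Libraries 3 and 4 thus lay within the oxLDL range. Nlrp3 (−0.42, SE 0.08, adjusted p = 0.0356) and Sema3e (−0.40, SE 0.07, adjusted p = 0.0221) also rose without oxLDL and had changes of −0.08 and −0.03 beside it. Chrnb1 (difference 0.84, SE 0.16, adjusted p = 0.0267), Stc1 (0.53, SE 0.09, adjusted p = 0.0221) and Dixdc1, a scaffold of Wnt signalling (0.47, SE 0.09, adjusted p = 0.0347), were lower without oxLDL and had changes of 0.14, 0.01 and 0.13 beside it. Of these 7 genes, each lost its call in at least 2 of the 8 fits without a single library, and Acod1 alone of the 8 was left without control 2 or tirzepatide library 1. Of the 8, 3 were called without tirzepatide library 3 and 5 without tirzepatide library 2. Without library 2 of the combination 6 were, the exceptions being Dixdc1 and Nlrp3 (adjusted p = 0.0569 each).

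**Figure D5:**
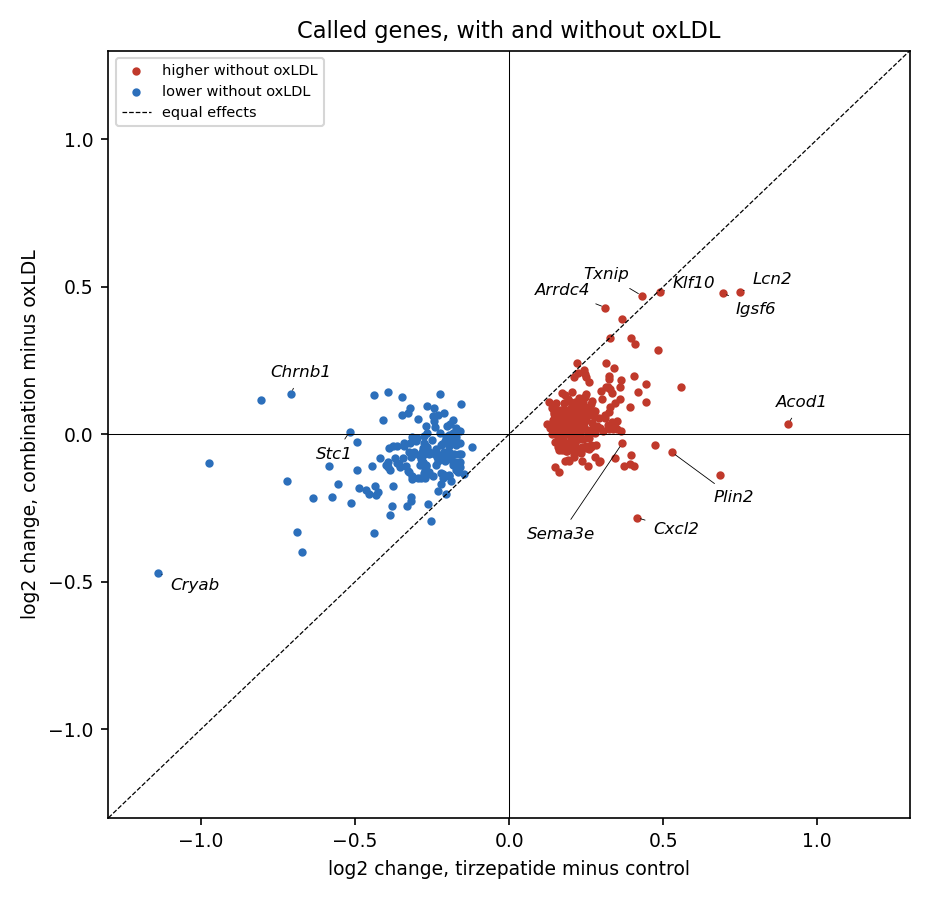
Called genes averaging 5 TPM or more in either group (423 of 430 lie within the axes), with the log2 change of tirzepatide without oxLDL on the horizontal axis and beside oxLDL on the vertical axis; the dashed line marks equal effects. Klf10, Txnip and Arrdc4 lie on or near the line, while Acod1, Plin2 and Stc1 lie near 0 on the vertical axis.

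The median log2 change beside oxLDL was 0.04 for the genes called higher and −0.08 for the 197 called lower, against −0.00363 for all genes tested. The sign was the same for 196 of the genes called higher and 154 of the 197 called lower, together 75.8% of the 462, against 56.2% of all genes tested. Without library 2 of the combination these shares were 72.7% and 54.5%. Genes called without oxLDL were chosen for the size of their change there, so the smaller change beside oxLDL is a description.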

How the data were processed

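Polyadenylated RNA was captured with beads, per the labels' protocols, and sequenced in 16 libraries, 4 a group. The authors deposited 1 table of estimated counts (expected counts, not all whole) and TPM values per gene. Tools listed, per the submitters' processing notes, are RSEM, StringTie 1.3.1, Bowtie2 2.2.8 and fastp 0.18.0, and the builds are GRCm39 and mm39. The annotation release and the strand setting of the counting are not given in the sources used here, so overlapping and antisense genes cannot be told apart.

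Expected counts were rounded to whole numbers, filtered with filterByExpr (minimum count 10), scaled by TMM and fitted with edgeR 4.0.16 in R 4.3.3 as 1 quasi-likelihood model of all 16 libraries. Effects are log2 changes with their standard error (SE, the log2 change over the square root of F). P-values were adjusted by Benjamini-Hochberg over the 11319 genes tested of 21965 in the table, and a gene was called at an adjusted p under 0.05 with no minimum fold. The difference of the tirzepatide effects with and without oxLDL was a contrast of the same fit. TPM served for levels and overlap only. The scripts were tested on simulated data. Alternatives used limma 3.58.1 and DESeq2 1.42.0.

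The members and gene lists were chosen with earlier results of these data known. The rule for genes named took, in each direction, at most 8 with the largest change (5 TPM or more, no overlap) and at most 8 with the smallest p, then at most 3 called from any list, and a set of genes of interest whether called or not. Other genes in the text were chosen after their values were seen. Some genes counted in the lists and sets are not reported here by name. Promoters came from RefSeq (GRCm38.p6). Transcript lengths were those of the longest transcript in the GENCODE annotation of the GRCm38 build, matched for 11288 of the genes tested. Libraries of a group differed by more than sampling noise. Controls and tirzepatide libraries of the same number mostly did not correlate best with each other. Libraries numbered 1 and 2 had a higher mitochondrial share than those numbered 3 and 4 in every group.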

Additional observations from a re-analysis of the deposited data

Results flagged for a closer look

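In 4 of 154 groups of 4 libraries examined, 1 library lay far from the other 3, by Dixon's criterion for outliers at 95%, with a gap of 0.856 to 0.946 of the group's range. Chance gives about 1 in 20 such groups. Il6 stood at 3.17 TPM in tirzepatide library 4 against 0.993 to 1.31 TPM in the other 3. Nos2 stood at 74.8 TPM in tirzepatide library 4 against 60.9 to 61.6 TPM. Tbc1d30 stood at 6.86 TPM in tirzepatide library 4 against 4.36 to 4.53 TPM. Rps25, a ribosomal protein gene called lower, stood at 1338 TPM in control 4 against 1545 to 1566 TPM in controls 1 to 3.

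The effect of tirzepatide differed between cells with and without oxLDL for 8 genes in edgeR's test of the difference itself. The difference, the log2 change with oxLDL minus that without, was −0.87 for Acod1, −0.70 for Cxcl2, −0.59 for Plin2, −0.42 for Nlrp3 and −0.40 for Sema3e. It was 0.84 for Chrnb1, 0.53 for Stc1 and 0.47 for Dixdc1.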

How the results depend on the processing

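All alternatives were listed together with the tests. The genes called, in total, higher and lower, were 462 with all libraries. Leaving out a single library gave 119 to 502 calls, 73 to 265.0 higher and 46 to 238 lower, lowest without control 2, and all 462 genes kept their sign in each of these 8 fits. The numbers were 204, 109 and 95 without controls 1 and 2, 56, 45 and 11 with only libraries numbered 3 and 4 (80.4% of calls higher), and 132, 52 and 80 with only those numbered 1 and 2 (39.4% higher, against 57.4% with all libraries). Fitting only control and tirzepatide libraries gave 264, 156 and 108, the acinar share as a covariate 251, 142 and 109, and the mitochondrial share 857, 496 and 361. Quantile normalization gave 342 calls, 171 of them higher (50.0%). DESeq2 gave 661 calls, 447 of them shared, and its size factors in edgeR 466. No filter on low counts gave 548, a filter of 5 TPM 441, and leaving out library 2 of the combination 542. Same-numbered controls and tirzepatide libraries correlated at −0.01 to 0.18, with 1 of 4 pairs over 0.1, and 1 of 4 libraries in either group correlated best with its own number. The mitochondrial share was higher in libraries numbered 1 and 2 than in those numbered 3 and 4 in all 4 groups. In the combination it was 10.5% and 9.37% against 8.38% and 8.10%. A pairing by number was thus neither shown nor excluded. With the replicate block there were 750 calls, 430 higher and 320 lower, and 29 genes whose effect differed with oxLDL, against 8. That last count was 1 to 16 without a single library, 5 without controls 1 and 2, 5 with libraries 3 and 4 only, 1 with libraries 1 and 2 only, 5 and 14 with the acinar and mitochondrial covariates, 39 with no filter and 58 with DESeq2. Among genes not called, Abcg1 (0.02) changed sign under quantile normalization (−0.0137), without controls 1 and 2 (−0.0226) and with the acinar (−0.0112) and mitochondrial (−0.0067) covariates, and ran from −0.0157 to 0.0401 without a single library. Il6 (−0.04) was 0.38 with libraries 3 and 4 only, 0.0499 with the acinar covariate and −0.68 to 0.13 without a single library, and Ccl2 (0.23) was −0.0250 with libraries 3 and 4 only. Fits on fewer libraries have less power; otherwise the cause of these differences was not tested. Without a filter or at low levels, counts limit the precision, as for Csf3, Il1b and Il6.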
